A study of Pongo abelii with 6 samples.

Results

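The genes described here are the cell cycle and mitosis gene families of orangutan (Pongo abelii) induced pluripotent stem cells, taken by name. A protein-coding gene belongs to the set when its symbol in the RefSeq gene table of the species starts with a family stem. Stems that a digit must follow are those of replication origin and helicase proteins (ORC, MCM), cell division cycle proteins (CDC), cyclin-dependent kinases and cyclins (CDK, CCNA, CCNB, CCND, CCNE), E2F factors, kinesins (KIF) and SMC subunits of condensin and cohesin, so that CDKN1A, for example, is outside the set. Stems taken as they stand are those of centromere proteins (CENP), spindle checkpoint and mitotic kinases (BUB, AURK, PLK1, PLK2, PLK4, MAD1L, MAD2L), condensin subunits (NCAP) and anaphase-promoting complex subunits (ANAPC). The set also takes MKI67, TOP2A, PCNA, TYMS, RRM1, RRM2 and FOXM1. The table holds 198 such symbols, and 101 of them were paired with at least 1 transcript of the deposited expression table, out of 15205 genes with a symbol in all. The rule uses names and no measured value, but it was chosen with earlier results of these data known. The other 97 symbols were not analysed here, and they include CDK1, CDK2, CDK4, CCNA2, CCND1, E2F1, TOP2A, PCNA, TYMS, RRM1, AURKA, MAD2L1, MCM2, MCM7, CENPA, CENPF, NCAPG, SMC3 and KIF11.

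RNA sequencing was done on 2 lines, Dokana and Djasinga, with 3 libraries each. Both lines received the same culture: iPS-Brew medium with the Wnt pathway compounds IWR1 at 1 uM and CHIR at 0.5 uM, on Matrigel, split in clumps with versene and collected over 3 passages in a row, and the total RNA was depleted of ribosomal RNA. The sample titles call the libraries of a line biological replicates while the design text calls the passages technical replicates. A p-value here therefore sets the difference between the lines against the spread between passages within the lines. Line, clone and donor animal cannot be told apart. A treatment label shared by all 6 libraries calls the cells differentiated, whereas the cell type label calls them induced pluripotent stem cells. The genotype label of the same libraries names small RNA, whereas the titles and the molecule label name total RNA.

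A dividing cell commits to a new cycle when D-type and E-type cyclins activate their kinases and E2F factors are released from the retinoblastoma proteins. Origins of replication are licensed by the origin recognition complex, CDC6 and the MCM helicase, and the cell enters mitosis when cyclin B and its kinase are switched on by CDC25 phosphatases. Condensin and cohesin shape the chromosomes, the CENP proteins build the kinetochore that holds them to spindle microtubules, kinesins move them, and the anaphase-promoting complex with CDC20 ends mitosis by marking cyclin B and securin for destruction. Cultured pluripotent stem cells of primates are known for fast division with a short first gap phase and a high level of these transcripts.

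The deposited values are TPM, each transcript's length-corrected share of its library, so levels are per length, and the read depth of the libraries is unknown. A single unnamed transcript assembled by StringTie held 16.9% to 28.2% of all TPM in the Dokana libraries and 26.7% to 42.4% in the Djasinga libraries, and transcripts of that assembler held 71.7% to 81.2% in all. Only transcripts with a symbol enter a gene's level, which can therefore be partial, to a different degree in each gene, and the orders of level below hold for the named transcripts. The fitted difference of the median gene was -0.29 on the log2 scale in Djasinga relative to Dokana. Counts below are given on the deposited TPM and after scaling every library by the median ratio of its genes, with factors of 0.857 to 1.34. Of 13 core pluripotency markers, 8 were paired with a transcript and all 8 exceeded the filter, with NANOG at 31.6 to 98.8 TPM and SOX2 at 33.8 to 57.5 TPM. Of 7 endoderm markers with a transcript none exceeded the filter, HNF4A was listed at 0 in all libraries and SOX17 stayed below 0.1 TPM. The summed TPM of the 7 was 0.414 to 0.938 in Dokana and 0.337 to 1.60 in Djasinga, with the highest value in Djasinga replicate 1. Of 12 fibroblast and mesenchyme markers with a transcript, 3 (THY1, TWIST2 and COL1A2) were tested, and the summed TPM was 63.1 to 83.4 in Dokana and 38.5 to 68.7 in Djasinga. Most of it was THY1, which pluripotent cells also carry, at 30.7 to 73.8 TPM, while DCN stayed below 0.1 TPM and FAP was listed at 0. Of 6 mesoderm markers 1, CER1, was tested, with a summed TPM of 4.15 to 5.61 in Dokana and 3.42 to 3.67 in Djasinga, and TBXT stayed below 0.1 TPM. Of 5 neuroectoderm markers 3 were tested, with a summed TPM of 11 to 12.3 in Dokana and 8.16 to 9.04 in Djasinga, and PAX6 stayed below 0.1 TPM. In bulk RNA, fewer cells in a phase and less RNA per cell cannot be told apart.

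The 101 genes together made up 1.28% to 1.55% of the TPM of named protein-coding genes in Dokana and 1.17% to 1.56% in Djasinga, so the ranges overlapped. The lowest share was that of Djasinga replicate 1 and the highest that of Djasinga replicate 3. Of the 101 genes, 82 reached 1 TPM in at least 3 libraries and were tested, 60 of these had a mean of at least 5 TPM and 17 a mean of at least 20 TPM. None of the 82 reached the filter in the libraries of 1 line alone. The remaining 19 genes lay under the filter, and 3 of those, CDC20B, CDK15 and KIF7, were listed at 0 in every library.

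**Figure D1:**
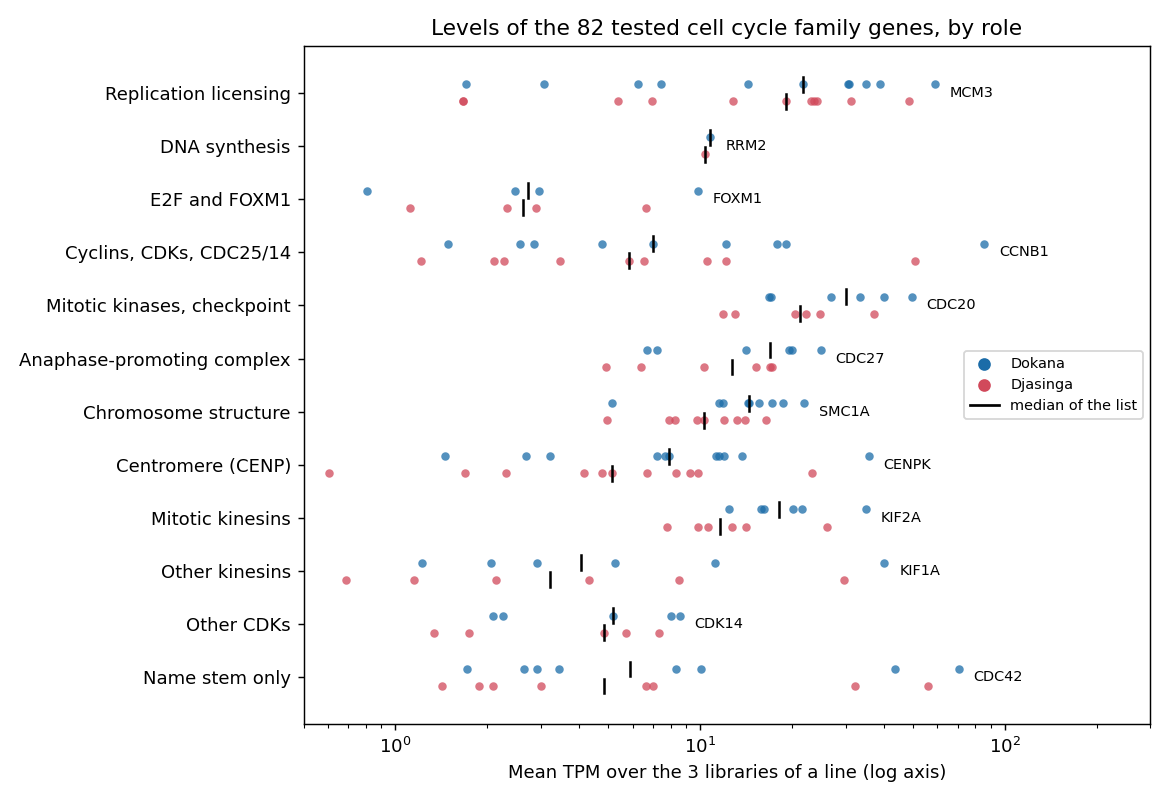
Each point is 1 tested gene at its mean TPM over the 3 libraries of a line (horizontal log axis), arranged by role, with Dokana in blue and Djasinga in red, and the vertical black tick is the median of the role list. The gene with the highest mean is named at the right of each row. CCNB1 at 85.2 TPM in Dokana and 50.8 TPM in Djasinga lies far to the right of the other cyclins, while the mitotic kinases and the mitotic kinesins hold few genes under 10 TPM.

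No gene of the set differed between the lines at an adjusted p of 0.05 in limma's test with Benjamini-Hochberg adjustment over all genes tested. Over all genes 22 of 6255 did, which is 0.352%, and 0.32% did after median-ratio scaling, again with 0 of the set. The smallest adjusted p among the 82 was 0.283, for CENPO. At an unadjusted p under 0.05, 14 of the 82 (17.1%) were lower in Djasinga and 0 were higher, beside 868 of all genes (13.9%) lower and 56 (0.895%) higher. After median-ratio scaling, 2 of the 82 (2.44%), CENPO and CDC14B, were lower at an unadjusted p under 0.05 and 0 were higher, beside 4.4% of all genes lower and 3.13% higher. With the replicate number as a block, 6 of the 82 (7.32%) were lower, beside 9.38% of all genes, and 5 of all genes (0.0799%) were called. Leaving out single libraries moved these counts. The 14 became 5, 39 and 2 without Dokana replicates 1, 2 and 3, and 8, 8 and 9 without Djasinga replicates 1, 2 and 3. The share of all genes at the same unadjusted p was not computed for these fits. These counts therefore cannot tell a change in the set from a change in the whole table. The 22 calls over all genes became 8, 6 and 7 and 13, 22 and 4 in the same order. None of the set was called in any of these fits.

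The median fitted difference of the 82 genes was -0.39 on the log2(TPM + 1) scale, beside -0.29 over all genes, and after scaling it was -0.08 beside -0.02. With the most abundant transcript left out of the total, the median of the set was -0.13. As deposited, 80 of the 82 differences were negative, and 24 of those 80 turned positive with the scaling. In 15 of the 82 genes (18.3%) every Djasinga library lay below every Dokana library, beside 24.5% of all genes, and in 0 every Djasinga library lay above, beside 1.18%. After scaling this held for 2 of the 82 genes, beside 7.8% of all genes, and 1 gene, CDC42EP2, had all Djasinga libraries above all Dokana libraries, beside 5.36% of all genes. The median SE of a gene's difference was 0.23 and its median 95% confidence interval reached 0.55 to either side, so the absence of a call does not show that a gene was equal in the lines.

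**Figure D2:**
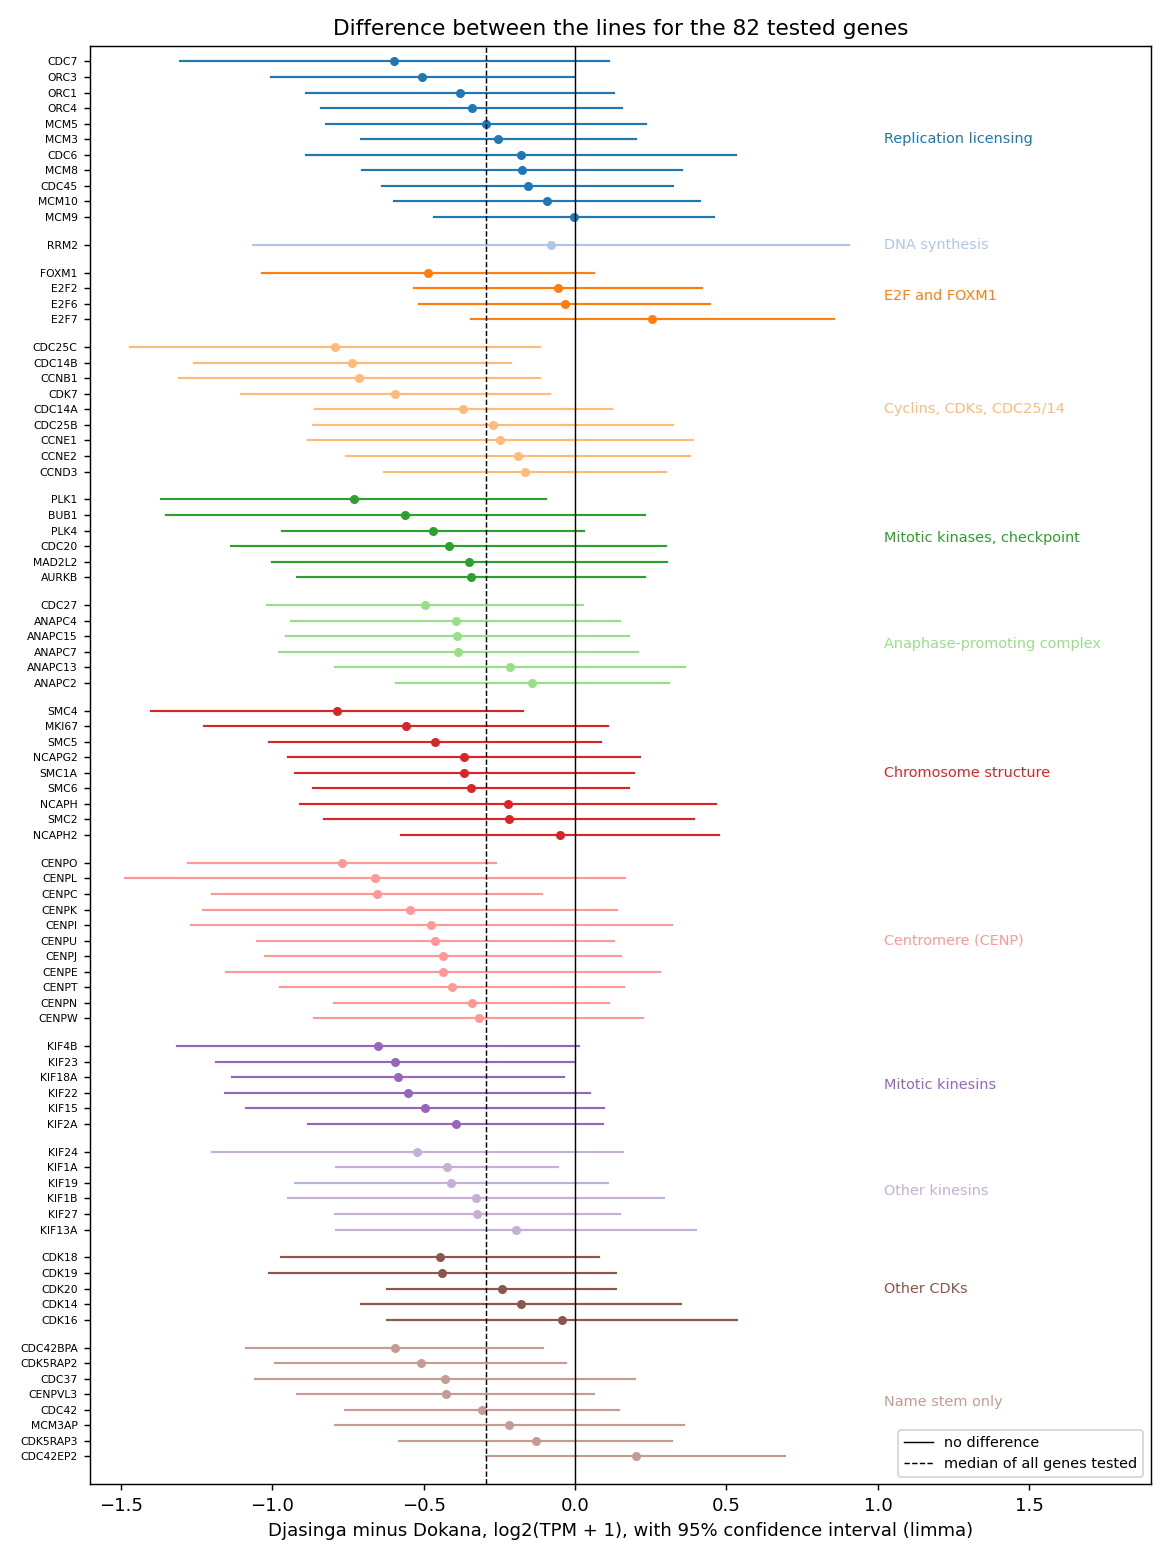
Each row is 1 of the 82 tested genes, the point is the fitted Djasinga minus Dokana difference in log2(TPM + 1) and the bar its 95% confidence interval from limma, with colours for the role lists. The solid line marks no difference and the dashed line the median of all genes tested at -0.29; only E2F7 and CDC42EP2 have points to the right of the solid line.

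Among the genes that license and fire replication origins, all 11 with a transcript were tested. Of these 1, ORC3, was lower in Djasinga at an unadjusted p under 0.05, beside 13.9% of all genes. The median difference of the 11 was -0.25 as deposited and 0.08 after scaling, so its direction depends on the scaling. The most abundant was MCM3, a subunit of the replicative helicase, with 59.2, 46.8 and 70.6 TPM in Dokana replicates 1 to 3 and 48.1, 47.7 and 50.0 TPM in Djasinga replicates 1 to 3. The Djasinga libraries lay close together and inside the range of Dokana. MCM5, of the same helicase ring, had 38.3, 30.4 and 48.4 TPM in Dokana and 27.4, 29.6 and 37.0 TPM in Djasinga. ORC3, an origin recognition subunit, had 36.1, 26.7 and 42.5 TPM in Dokana and 22.7, 22.8 and 26.8 TPM in Djasinga, and the lines met at the edge, where the highest Djasinga library exceeded the lowest Dokana library. Its difference was -0.50 with an SE of 0.21 and an adjusted p of 0.336.

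CDC6, the ATPase that loads the helicase, had 22.1, 15.2 and 28.0 TPM in Dokana and 16.5, 14.5 and 26.5 TPM in Djasinga. Its replicates differed more than the lines did, with Djasinga replicate 3 and Dokana replicate 3 the highest of their lines. CDC45, which joins the helicase when an origin fires, ranged from 10.5 to 16.7 TPM over the 6 libraries, and MCM10, needed at the same step, from 5.53 to 9.04 TPM. CDC7, the kinase that triggers firing, was lower than any of these at 1.15 to 4.30 TPM. MCM8 and MCM9, known for DNA repair by recombination rather than for licensing, ranged from 4.41 to 7.68 TPM and from 1.32 to 2.25 TPM, and MCM9 was the lowest of the list.

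RRM2, the regulated subunit of the enzyme that makes deoxyribonucleotides, was the single DNA synthesis gene of the set with a transcript. It had 9.78, 6.45 and 16.1 TPM in Dokana and 6.48, 7.78 and 16.8 TPM in Djasinga. In both lines replicate 3 stood far above the others, and the lines covered nearly the same range. The difference was -0.08 with a 95% confidence interval from -1.06 to 0.91 and an adjusted p of 0.906, and it turned to 0.24 after scaling.

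Among the transcription factors, FOXM1, the activator of genes for entry into mitosis, had 9.94, 7.29 and 12.2 TPM in Dokana and 5.37, 7.30 and 7.26 TPM in Djasinga. The Djasinga libraries lay at or under the lowest Dokana library except by a small margin in Djasinga replicate 2. E2F2, an activating E2F factor, stayed between 1.9 and 3.05 TPM and the repressor E2F6 between 2.26 and 3.65 TPM. The repressor E2F7 was near the filter, with 0.915, 0.288 and 1.22 TPM in Dokana and 0.774, 1.34 and 1.24 TPM in Djasinga, and its difference of 0.25 (95% confidence interval -0.34 to 0.85, adjusted p 0.559) was positive.

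The cyclins, their kinases and the phosphatases CDC25 and CDC14 gave 9 tested genes, of which 4 were lower in Djasinga at an unadjusted p under 0.05 as deposited, beside 13.9% of all genes, and 1, CDC14B, after scaling, beside 4.4%. CCNB1, the B-type cyclin that drives entry into mitosis, was the most abundant gene of the whole set, with 91.7, 60.1 and 104 TPM in Dokana and 41.4, 59.1 and 51.9 TPM in Djasinga. All Djasinga libraries lay below all Dokana libraries, though Djasinga replicate 2 and Dokana replicate 2 were nearly equal. The means were 85.2 ± 22.6 and 50.8 ± 8.89 TPM (SD, n = 3 libraries each), the difference was -0.71 with a 95% confidence interval from -1.31 to -0.11, and the adjusted p was 0.326. After scaling the difference was -0.38 with an adjusted p of 0.823.

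CDC25C, the phosphatase that activates the mitotic kinase, had 13.5, 7.96 and 15.1 TPM in Dokana and 4.68, 7.68 and 7.20 TPM in Djasinga, without overlap. Its difference of -0.79 had an SE of 0.29 and an adjusted p of 0.326. CDK7, the kinase that activates other cyclin-dependent kinases and is part of the general transcription machinery, had 19.5, 14.5 and 23.2 TPM in Dokana and 13.3, 10.6 and 12.5 TPM in Djasinga, also without overlap. CDC14B, a phosphatase whose yeast relative drives exit from mitosis, had 17.3, 16.5 and 20 TPM in Dokana and 12.8, 11.3 and 7.62 TPM in Djasinga. The 2 sets of libraries were apart on either scale, and the difference of -0.74 (SE 0.22, adjusted p 0.302) became -0.42 with an adjusted p of 0.650 after scaling.

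The tested cyclins of the first gap phase, CCNE1, CCNE2 and CCND3, were less abundant than CCNB1 by their named transcripts. CCNE1, which drives entry into DNA synthesis, had 8.19, 5.32 and 7.49 TPM in Dokana and 4.33, 4.96 and 8.28 TPM in Djasinga, and Djasinga replicate 3 was the highest of all 6 libraries. CCNE2 ranged from 1.56 to 3.44 TPM, and CCND3, the single D-type cyclin with a transcript, from 0.948 to 1.91 TPM, the lowest mean of the list. CCNA1, the germline A-type cyclin, stayed below 0.1 TPM in every library, and CDK6, the partner of D-type cyclins, stayed below 1 TPM.

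Of the mitotic kinases and spindle checkpoint genes, 6 of 7 with a transcript were tested. PLK1 alone was lower in Djasinga at an unadjusted p under 0.05, beside 13.9% of all genes. CDC20, the activator of the anaphase-promoting complex, had 52.1, 35.8 and 60.3 TPM in Dokana and 24.0, 43.8 and 44.1 TPM in Djasinga. Djasinga replicate 1 was the lowest of all 6 libraries, while the other Djasinga libraries lay inside the range of Dokana. PLK1, the kinase that drives spindle formation and cytokinesis, had 41.9, 33.9 and 44.9 TPM in Dokana and 17.2, 34.2 and 22.5 TPM in Djasinga. Djasinga replicate 2 exceeded Dokana replicate 2, so the lines overlapped. The difference of -0.73 had an SE of 0.27, a 95% confidence interval from -1.37 to -0.09 and an adjusted p of 0.326, and it was -0.40 after scaling.

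BUB1, a checkpoint kinase at the kinetochore, had 39.9, 20.7 and 39.6 TPM in Dokana and 15.0, 29.2 and 22.3 TPM in Djasinga. AURKB, the kinase of the chromosomal passenger complex, had 17.9, 12.5 and 20.1 TPM in Dokana and 10.2, 13 and 15.8 TPM in Djasinga. For both, Djasinga replicate 1 was the lowest library and the lines overlapped. PLK4, which starts centriole duplication, ranged from 11.5 to 20.6 TPM, and MAD2L2, named for the checkpoint but known for its part in DNA repair, from 15.9 to 34.2 TPM.

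The anaphase-promoting complex was represented by 6 subunits, all tested, and 0 of them passed an unadjusted p of 0.05. CDC27, a scaffold subunit that receives the activators, had 26.2, 18.0 and 30.3 TPM in Dokana and 16.1, 16.7 and 18.1 TPM in Djasinga, which overlapped at the edge. ANAPC15 was the lowest by mean, at 3.75 to 7.68 TPM over the 6 libraries. ANAPC13 had its highest value of all 6 libraries in Djasinga replicate 1 at 22.5 TPM and its lowest in Djasinga replicate 2 at 12 TPM.

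Of the genes for chromosome structure, 9 of 10 with a transcript were tested. SMC4 alone was lower in Djasinga at an unadjusted p under 0.05, beside 13.9% of all genes. SMC4, a core subunit of condensin, had 15.4, 10.4 and 17.2 TPM in Dokana and 7.77, 5.90 and 10 TPM in Djasinga, without overlap. Its difference was -0.78 with an SE of 0.26 and an adjusted p of 0.321. SMC2, its partner in the same complex, had 15.6, 9.65 and 18.1 TPM in Dokana and 11.1, 10.6 and 14.3 TPM in Djasinga, with overlap.

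SMC1A, a cohesin subunit, was the most abundant of the list at 14 to 26.7 TPM, and NCAPH2, of the second condensin complex, was the lowest at 3.89 to 6.12 TPM. MKI67, the proliferation marker that coats mitotic chromosomes, had 17.4, 11 and 18.4 TPM in Dokana and 7.27, 10.3 and 13.4 TPM in Djasinga. Its lines overlapped, and the difference of -0.56 (SE 0.28, adjusted p 0.359) was -0.22 after scaling. SMC1B, the cohesin subunit of meiosis, stayed below 1 TPM in every library.

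The centromere proteins gave 11 tested genes. Of these, CENPO and CENPC were lower in Djasinga at an unadjusted p under 0.05 as deposited, beside 13.9% of all genes. After scaling CENPO alone was, beside 4.4% of all genes. CENPO, a subunit of the constitutive network at the inner kinetochore, had 7.85, 6.04 and 9.74 TPM in Dokana and 3.52, 4.31 and 4.64 TPM in Djasinga. Every Djasinga library lay below every Dokana library, before and after scaling. The difference was -0.77 with a 95% confidence interval from -1.28 to -0.26 and an adjusted p of 0.283, and after scaling it was -0.48 with an adjusted p of 0.550. CENPC, which ties centromeric nucleosomes to the outer kinetochore, had 11.7, 8.21 and 13.8 TPM in Dokana and 7.12, 7.37 and 5.58 TPM in Djasinga, with a difference of -0.65 and an adjusted p of 0.326.

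CENPK was the most abundant centromere protein gene, with 35.7, 22.5 and 48.9 TPM in Dokana and 19.9, 23.6 and 26.1 TPM in Djasinga, and the lines overlapped. CENPL was the lowest of those tested, at 0.728, 1.77 and 1.89 TPM in Dokana and 1.27 and 0.546 TPM in Djasinga replicates 1 and 3, while Djasinga replicate 2 was practically at 0. CENPE, a kinesin of the outer kinetochore, had 11, 4.42 and 7.58 TPM in Dokana and 4.31, 5.49 and 5.56 TPM in Djasinga, so its spread within Dokana exceeded the difference between the lines. CENPJ, which has a CENP name but acts in centriole assembly, ranged from 1.39 to 3.63 TPM.

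The mitotic kinesins had the lowest median difference of the lists with more than 1 tested gene, -0.57 as deposited and -0.25 after scaling, over 6 tested genes. KIF18A, which damps chromosome movements at the spindle equator, had 13.5, 8.67 and 15.2 TPM in Dokana and 7.20, 8.58 and 7.53 TPM in Djasinga. KIF23, the motor of the central spindle in cytokinesis, had 21.0, 13.9 and 25.4 TPM in Dokana and 10.8, 14.5 and 12.9 TPM in Djasinga. KIF18A did not overlap between the lines and KIF23 did. Of the 6 tested genes both of these were lower in Djasinga at an unadjusted p under 0.05, beside 13.9% of all genes. Their adjusted p values were 0.332 and 0.336. KIF2A, a depolymerase of microtubules, was the most abundant at 22.9 to 42.6 TPM and KIF15, which helps hold the spindle poles apart, ranged from 9.39 to 19.1 TPM. The value of KIF4B, 7.33 to 19.0 TPM, is uncertain, since reads of its near-identical copy KIF4A, which was not analysed here, may be counted in it.

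Among transport and other kinesins, KIF1A, a carrier of vesicles known from neurons, stood out by its level. It had 37.8, 38.2 and 44.5 TPM in Dokana and 29.7, 29.5 and 29.6 TPM in Djasinga, without overlap and with nearly equal Djasinga libraries. Its difference of -0.42 (SE 0.16, adjusted p 0.326) was -0.09 after scaling. The next most abundant, KIF1B, ranged from 7.41 to 15.2 TPM, and KIF19 was the lowest tested, at 0.401 to 1.43 TPM.

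The cyclin-dependent kinases outside the cell cycle engine gave 5 tested genes and 0 at an unadjusted p under 0.05. CDK14 was the highest by mean at 6.29 to 10.5 TPM, CDK18 followed with 4.08 to 9.26 TPM, and CDK19, a kinase of the Mediator complex, was the lowest at 0.925 to 2.36 TPM. A further 8 tested genes share a name stem but have other roles, which is why they are kept apart. CDC42, a small GTPase of the actin cytoskeleton, was the second most abundant gene of the set, with 67.2, 57.8 and 86.2 TPM in Dokana and 55.9, 58.1 and 54.0 TPM in Djasinga. CDC42BPA, a kinase that CDC42 activates, had 2.18, 2.58 and 3.17 TPM in Dokana and 1.89, 1.22 and 1.14 TPM in Djasinga, without overlap and with a difference of -0.59 (adjusted p 0.326). CDK5RAP2, a centrosome protein, had a difference of -0.51 (adjusted p 0.333), and CDC42EP2, an effector of CDC42, had one of 0.20 (95% confidence interval -0.29 to 0.69, adjusted p 0.574).

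The libraries of a line also differed among themselves, and not alike in every role. After scaling, Djasinga replicate 1 was the lowest of the 6 libraries in 45 of the 82 genes (54.9%), beside 22.2% of all genes tested. It was the lowest in all 6 mitotic kinases and checkpoint genes, in 5 of 6 mitotic kinesins, in 5 of 6 subunits of the anaphase-promoting complex and in 6 of 11 centromere proteins. Relative to the median of the 6 libraries, its median deviation was -0.66 on the log2 scale for mitotic kinases and checkpoint genes, -0.41 for mitotic kinesins, -0.40 for chromosome structure and -0.29 for centromere proteins. For origin licensing it was -0.10, with Djasinga replicate 1 the lowest in 5 of 11 genes (45.5%), and for all genes -0.01. Replication genes outside the set were low in this library too, since it was the lowest in 9 of 13 origin and replisome partners (69.2%), with a median deviation of -0.22. Dokana replicate 2 was also low: it lay below the 6-library median in 68 of the 82 genes, beside 3146 of all 6255 genes tested. For Djasinga replicate 1 these counts were 65 and 3238. Dokana replicate 2 was the lowest in 18 of the 82 genes (22%), beside 13.2% of all genes. Its median deviation was -0.28 for mitotic kinases and checkpoint genes and -0.16 for origin licensing. Without Djasinga replicate 1 the median scaled difference of the set between the lines was 0.01 in place of -0.08. Without Dokana replicate 2 it was -0.13.

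**Figure D3:**
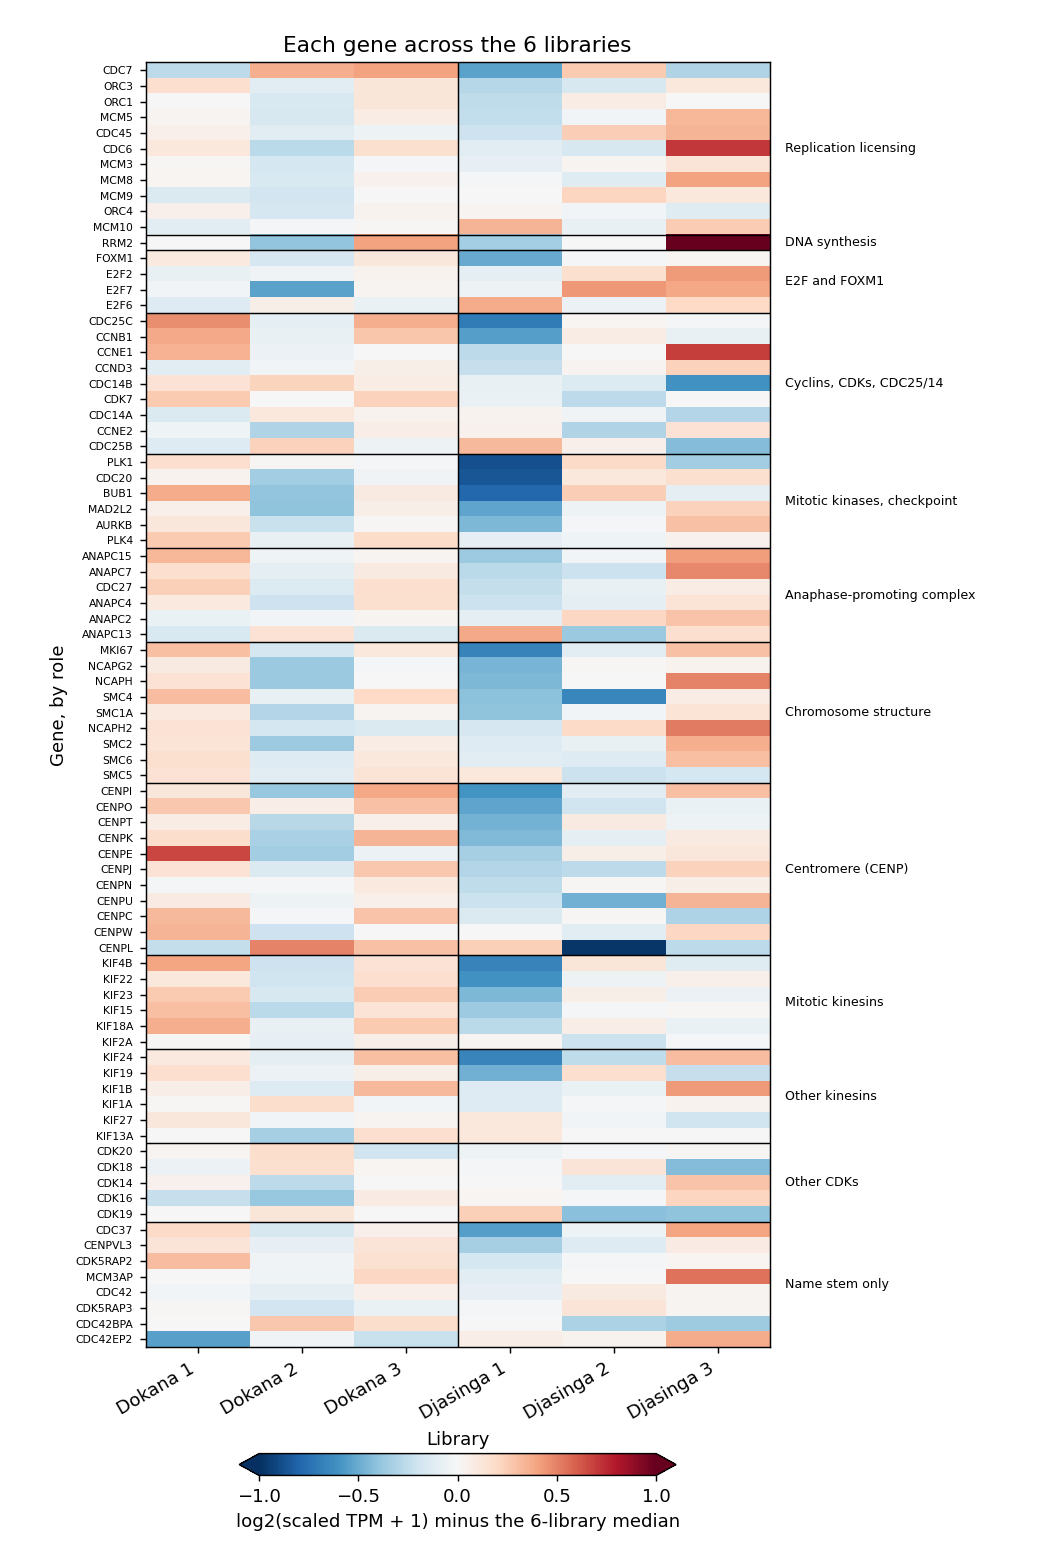
Rows are the 82 tested genes grouped by role, columns are the 6 libraries, and the colour is log2(scaled TPM + 1) minus the median of the 6 libraries, from blue (lower) to red (higher). Djasinga replicate 1 is blue across the mitotic kinases, with a median of -0.66, and paler across origin licensing, with a median of -0.10, Dokana replicate 2 is pale blue in most rows, and RRM2, CDC6 and CCNE1 are red in Djasinga replicate 3.

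Djasinga replicate 3 was the highest library in 29 of the 82 genes (35.4%), beside 27.6% of all genes, and Dokana replicate 1 in 21 (25.6%), beside 15.6%. Djasinga replicate 3 was the highest in 5 of 11 origin licensing genes, 5 of 9 chromosome structure genes, 3 of 6 mitotic kinases and checkpoint genes and 3 of 6 subunits of the anaphase-promoting complex. Ratios of genes within a library do not depend on the scaling, and the pairs here were chosen after the levels were seen, so they are given without a test. RRM2 over PLK1 was 0.233, 0.190 and 0.360 in Dokana and 0.378, 0.227 and 0.745 in Djasinga. MCM3 over PLK1 was 1.41, 1.38 and 1.57 in Dokana and 2.80, 1.39 and 2.22 in Djasinga, so Djasinga replicates 1 and 3 stood above the other 4 libraries, which were alike. CCNE1 over CCNB1 was 0.0893, 0.0885 and 0.0722 in Dokana and 0.105, 0.0839 and 0.160 in Djasinga, with the same libraries on top. The summed TPM of the licensing list over that of the mitotic kinases and checkpoint list was 1.25, 1.45 and 1.39 in Dokana and 2.01, 1.25 and 1.52 in Djasinga.

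Other transcripts also differed between the libraries of a line. CDKN1A, the inhibitor of cyclin-dependent kinases that p53 induces, had 42.7, 41.4 and 33.5 TPM in Dokana and 49.8, 56.8 and 1.99 TPM in Djasinga, and Djasinga replicate 3 was far below the others. Of 18 listed p53 targets, 11 had a transcript and 10 were tested, and their summed TPM was 409 to 448 in Dokana and 168 to 561 in Djasinga, with the lowest value in replicate 3 and the highest in replicate 1. All 10 had their lowest scaled level in Djasinga replicate 3, and 6 had their highest in Djasinga replicate 1. Of 8 trophoblast and amnion markers, 7 had a transcript and IGFBP3 alone was tested, and the summed TPM was 1.26 to 2.87 in Dokana and 0.880 to 12.7 in Djasinga, with the highest value in replicate 1. IGFBP3 had 12.6 TPM in Djasinga replicate 1, while CDX2, GATA3 and TFAP2A were at or near 0 in every library. The part of the p53 targets or of other cell types in the levels of the cell cycle genes was not tested.

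**Figure D4:**
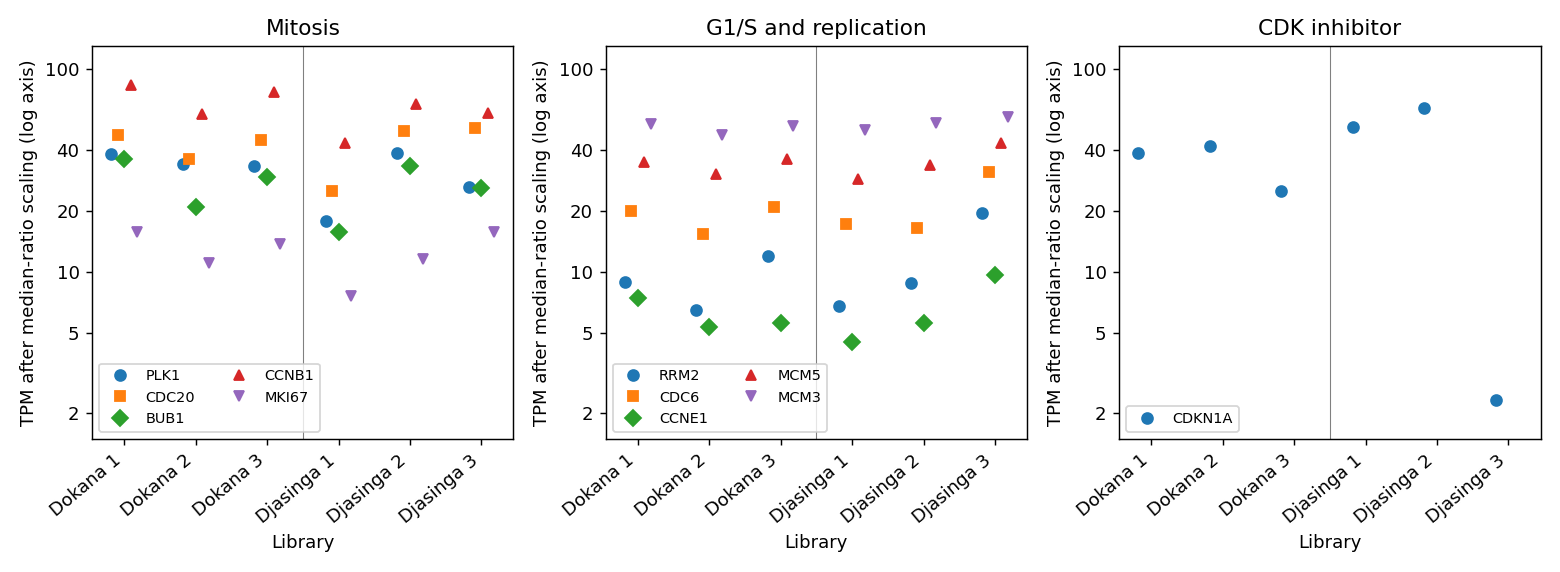
Points are TPM after median-ratio scaling (vertical log axis) in each of the 6 libraries, for 5 genes of mitosis (left), 5 genes of entry into DNA synthesis and replication (middle) and CDKN1A (right), with a grey line between Dokana and Djasinga. The mitotic genes are lowest in Djasinga replicate 1, RRM2, CDC6 and CCNE1 are highest in Djasinga replicate 3, and CDKN1A is lowest there.

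Partners of these genes that carry other names were taken from 4 lists. Of 36 origin and replisome genes, 13 had a transcript and were tested, and 0 passed an unadjusted p of 0.05. The most abundant was DUT, which keeps uracil out of DNA, with 64.7, 45.5 and 74.5 TPM in Dokana and 40.1, 51.8 and 53.5 TPM in Djasinga. Of 35 kinetochore, spindle and cytokinesis genes, 26 were tested and 7 were lower in Djasinga at an unadjusted p under 0.05 as deposited, beside 13.9% of all genes, namely SKA2, TTK, SGO1, SGO2, TPX2, NUSAP1 and PRC1. NUSAP1, which bundles spindle microtubules, was the most abundant of them, with 67.9, 49.0 and 73.7 TPM in Dokana and 33.7, 44.9 and 35.2 TPM in Djasinga, without overlap. After scaling 1 of the 26 was lower and 1 higher, beside 4.4% and 3.13% of all genes.

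Of 18 cohesin, separase and anaphase-promoting complex partners, 11 were tested and 4 were lower in Djasinga at an unadjusted p under 0.05, beside 13.9% of all genes, namely RAD21, PDS5B, PTTG1 and FBXO5, and after scaling 0 were. PTTG1, the securin that holds separase inactive, had 97.1, 71.8 and 106 TPM in Dokana and 60.7, 72.8 and 58.7 TPM in Djasinga. Djasinga replicate 2 exceeded Dokana replicate 2, so the lines overlapped. Of 26 inhibitors and retinoblastoma or DREAM complex genes, 9 were tested. LIN9 alone was lower at an unadjusted p under 0.05 as deposited, beside 13.9% of all genes. No gene of the 4 lists was called after adjustment over all genes.

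The table gives transcripts, and 38 of the 101 genes have more than 1 named transcript. Of the 164 named transcripts, 108 were tested and 0 were called, beside 1.03% of all transcripts tested. At an unadjusted p under 0.05, 17 of the 108 (15.7%) were lower in Djasinga, beside 13.1% of all transcripts, and after scaling 4 (3.70%), beside 5.22%. The smallest adjusted p was 0.151, for the main transcript of CENPO.

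In some genes the named transcripts did not move alike. The main transcript of KIF23 had 18.4, 10.9 and 17.5 TPM in Dokana and 6.48, 10.2 and 6.16 TPM in Djasinga. Its adjusted p in limma was 0.210 as deposited and 0.481 after scaling. Its partner had 2.58, 3.00 and 7.92 TPM in Dokana and 4.27, 4.28 and 6.70 TPM in Djasinga, so that the main transcript held 87.7%, 78.4% and 68.9% of the named KIF23 TPM in Dokana and 60.3%, 70.4% and 47.9% in Djasinga. The share in Djasinga replicate 2 lay above that in Dokana replicate 3. For CENPI, 1 of 5 transcripts held 42.6% to 48.4% of the named TPM in Dokana and 13.4% to 27.3% in Djasinga, without overlap. Its adjusted p in limma was 0.165 as deposited and 0.286 after scaling. For CCNE2, 1 of 3 transcripts held 95.3% to 100% of the named TPM in Dokana and 0.770% to 66.3% in Djasinga, also without overlap. The levels were low, at 1.74 to 3.27 TPM in Dokana and 0.0120 to 1.57 TPM in Djasinga. The adjusted p of this CCNE2 transcript in limma was 0.302 as deposited and 0.640 after scaling. Such shares rest on the assignment of reads between overlapping isoforms, and transcripts without a symbol are not in them.

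**Figure D5:**
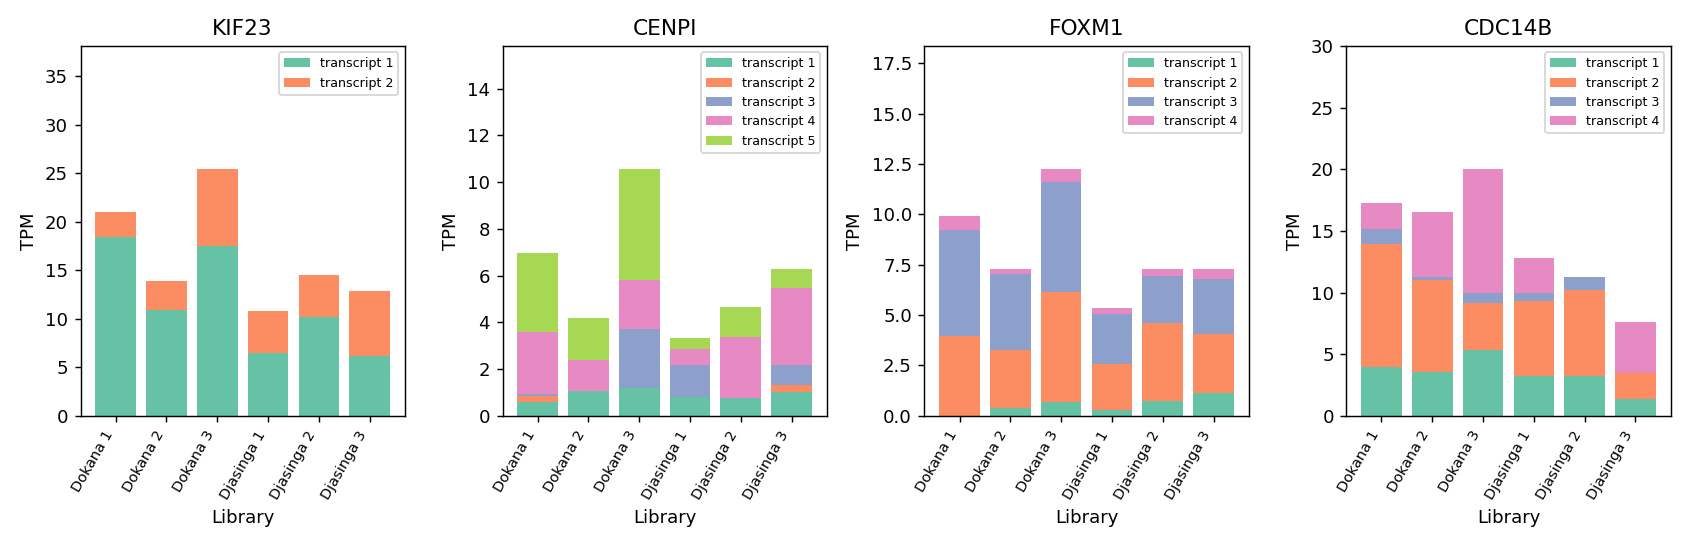
Bars stack the TPM of the named transcripts of KIF23, CENPI, FOXM1 and CDC14B in each of the 6 libraries, with transcripts numbered by accession and a linear vertical axis from 0. The first KIF23 transcript has 18.4, 10.9 and 17.5 TPM in Dokana replicates 1 to 3 and 6.48, 10.2 and 6.16 TPM in Djasinga replicates 1 to 3. The fifth CENPI transcript holds 13.4% to 27.3% of the bar in Djasinga.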

How the data were processed

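The authors deposited 1 table of TPM, the length-corrected share of each transcript in its library, with 6 library columns. The submitters' processing notes list STAR and StringTie without versions, FastQC 0.11.9 and Trimmomatic 0.39, and no roles. Genome build, annotation and quantification settings: not given in the sources used here. TPM carry no read depth, so no counting interval can be given, and a dominant transcript lowers all others. Names, but no coordinates, were read from RefSeq's list of genes for NHGRI_mPonAbe1-v2.0, and 22113 of 43705 RefSeq transcripts (50.6%) were paired, with version numbers dropped.

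TPM were summed per symbol. A gene was tested if 3 or more libraries held 1 TPM or more, with limma 3.58.1 (trend, R 4.3.3) on log2(TPM + 1), Djasinga minus Dokana, with Benjamini-Hochberg adjustment over all genes tested at 0.05. Fold changes on this scale understate those of low genes. The code was tested on simulated data. Tables used Python 3.11.15 with pandas 2.3.3.

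The labels give the replicate number under a batch tag, so same-numbered libraries were taken as pairs in a block, an alternative fit; the correlations of their deviations from the line means were -0.0930, -0.130 and 0.152 over all genes tested and -0.487, -0.218 and 0.372 over the 82 genes of the set. The other alternatives were scaling, pseudocount, filters, gene classes and leaving out each library. Members and lists were chosen with earlier results of these data known. Genes were named by rule: called genes, the highest and lowest tested mean and the 2 smallest p of each role list, fixed cell cycle representatives, the 10 widest ranges within a line, and the most abundant gene of each partner list; others were chosen after their values were seen. Promoter and protein sequences were not used here. Small RNA data were not used here.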

Additional observations from a re-analysis of the deposited data

How the results depend on the processing

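None of the tested genes of the set was called in limma under any of the 26 alternatives, and none of its transcripts under those run on transcripts (not protein-coding genes alone or matching by version), including the 6 chosen after the data were seen, which leave out 1 library after median-ratio scaling. The 14 genes lower in Djasinga at an unadjusted p under 0.05 became 2 with median-ratio scaling, 2 with quantile normalization, 2 without the most abundant transcript, 6 with the replicate block, 1 with the block and scaling, 22 with protein-coding genes alone, 4 with those and scaling, and 0 with accessions matched by version, where few genes are left. Without single libraries the count was 2 to 39, and 0 to 4 with scaling. The share of all genes at this unadjusted p was 13.9% as deposited, 4.4% with median-ratio scaling and 9.38% with the replicate block. It was not computed for the other fits, so their counts cannot tell the set from the whole table. The median difference of -0.39 became -0.080 with median-ratio scaling, also with the block, and -0.076 with quantile normalization and with protein-coding genes alone and scaling. It was -0.53 to -0.25 without single libraries. With scaling it was -0.031, -0.13 and -0.048 without Dokana replicates 1 to 3 and 0.010, -0.087 and -0.17 without Djasinga replicates 1 to 3.

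The 22 calls over all genes became 10 with a pseudocount of 0.1, 9 with a filter of 5 TPM, 5 with the replicate block, 1 with the block and scaling, 48 with protein-coding genes alone, 3 with those and scaling, and 0 with versions. Without single libraries they were 4 to 22, and with scaling 8, 7 and 9 without Dokana and 11, 11 and 3 without Djasinga replicates 1 to 3. The 232 transcripts called became 107 with a pseudocount of 0.1, 99 with no filter, 103 with a filter of 5 TPM, 152 with the replicate block and 30 with the block and scaling. Without single libraries they were 37 to 186, and in the same order with scaling 36, 38 and 32 and 75, 60 and 46. The causes were not tested.

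Of 466 refitted differences of 19 named genes, 451 kept direction and side of the threshold and 15 reversed. RRM2, at -0.08, reversed to 0.24 with median-ratio scaling, with quantile normalization, with the block and scaling and with protein-coding genes alone and scaling, and to 0.19 without the most abundant transcript. It ranged from -0.46 to 0.23 without single libraries, and with scaling was 0.23, 0.034 and 0.43 without Dokana replicates 1 to 3 and 0.53 and 0.36 without Djasinga replicates 1 and 2. Without Djasinga replicate 1 and with scaling, MKI67 reversed to 0.014 and CDC20 to 0.25. The depth of the libraries is unknown.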

Other observations

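Genes of the set under the filter included a motor and a kinase known from dividing cells. KIF14, a kinesin of cytokinesis, had 0.408, 0.0845 and 0.266 TPM in Dokana and 0.0996, 0.166 and 0.736 TPM in Djasinga, with the highest value in Djasinga replicate 3. CDK6 had 0.191, 0.448 and 0.807 TPM in Dokana and 0.197 and 0.289 TPM in Djasinga replicates 1 and 2, with Djasinga replicate 3 practically at 0. KIF13B, a transport kinesin, had 0.846, 1.33 and 1.53 TPM in Dokana and 0.555, 0.487 and 0.343 TPM in Djasinga, so that the lines did not overlap, and it reached 1 TPM in too few libraries to be tested.

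Among the regulators around the set, MYBL2, a transcription factor of the DREAM-related complex that activates mitotic genes, had 25.5, 16.8 and 32.9 TPM in Dokana and 12.6, 19.1 and 25.7 TPM in Djasinga. TFDP1, a DNA-binding partner of E2F factors, had 26.1, 20.7 and 33.8 TPM in Dokana and 18.1, 19.5 and 28.5 TPM in Djasinga. In both, Djasinga replicate 1 was the lowest library, and the highest was Dokana replicate 3 on the deposited TPM and Djasinga replicate 3 after median-ratio scaling. UHRF1, a maintenance methylation factor made with DNA synthesis, was highest in Djasinga replicate 3 at 36.2 TPM, beside 18.4 TPM in each of the other Djasinga libraries and 19.4 to 35.0 TPM in Dokana.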
